A study of Sus scrofa with 33 samples.

Results

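CCL2, CXCL8 and CCL8 are 3 genes for chemokines, small secreted proteins that draw leukocytes out of the blood. They were followed in right ventricular myocardium of pigs (Sus scrofa) through pulmonary banding and, in 1 arm, a later shunt. Each gene was found through the platform annotation, by probe sets that carry its symbol and no other. Each had 1 such probe set, so no choice among probe sets was needed and no other set could be compared. Their Entrez gene identifiers are 397422 for CCL2, 396880 for CXCL8 and 100302703 for CCL8. They are 3 of 6765 genes and 3 of 23999 probe sets on the Affymetrix Porcine array.

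The study banded the pulmonary artery of 11 pigs to bring on failure of the right ventricle and then randomised them to a modified Glenn shunt, which leads blood from the superior vena cava past the right heart into the pulmonary artery, or to no shunt. Each pig gave 3 biopsies of the right ventricular free wall, so that 33 arrays were read, with no pooling of pigs. The first biopsy was the baseline, before banding, and the middle biopsy followed 120 min of banding in all pigs. The last biopsy is labelled as 60 min of banding with the shunt in 6 pigs (the shunt arm) and as 60 min of banding alone in 5 pigs (the control arm), and these 60 min are taken here to follow the first 120 min. Both arms had therefore had the same treatment up to the middle biopsy, and the control arm was banded too. The labels used here do not give strain, sex or age. No unbanded pigs were biopsied over the same hours, so a change between biopsies includes everything that elapsed between them, the earlier biopsies among it.

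Chemokines act by binding receptors on leukocytes that then crawl towards the source. CCL2 (monocyte chemoattractant protein-1) acts mainly through CCR2 and draws monocytes. CXCL8 (interleukin-8, in pigs also called AMCF-I) acts through CXCR1 and CXCR2 and draws neutrophils. CCL8 (monocyte chemoattractant protein-2) belongs to the same family as CCL2 and can use several CC receptors. In tissue such as the heart, endothelial cells, fibroblasts and macrophages can make these proteins after injury, and the signals of interleukin-1, tumour necrosis factor and toll-like receptors switch on the CCL2 and CXCL8 genes. In the RefSeq gene order of the Sscrofa11.1 assembly CCL8, CCL11 and CCL2 follow one another, and CCL11 was not analysed here.

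All levels are log2 values after robust multi-array averaging (RMA), so a difference of 1 is a doubling of signal, and levels of different probe sets are not set against each other. The tissue label was borne out by 11 measured cardiomyocyte genes, whose mean level lay between 13.6 and 14.0 on every array. By the levels of the spiked-in control RNAs the arrays fell into 3 sets. Shunt pigs 1 to 4 had the Dap control at 3.22 to 3.57, below shunt pigs 5 and 6 (8.08 to 8.60) and all control pigs (6.64 to 8.95). The BioB control told the last 2 sets apart, with 5.82 to 6.15 in shunt pigs 5 and 6 and 8.84 to 10.02 in control pigs. No set held pigs of both arms, so in comparisons between the arms array set and arm cannot be told apart. The 3' minus 5' difference of GAPDH, a sign of RNA quality, averaged 0.67 to 0.76 in the groups of the shunt arm and 0.86 to 0.96 in those of the control arm. The number of arrays limits the precision.

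The first comparison, 120 min of banding against baseline, asked how the genes changed as the right ventricle was brought to failure. All 3 genes rose over the 11 pigs, CCL2 about 10.6-fold, CXCL8 3.83-fold and CCL8 1.46-fold. CCL2 and CXCL8 were higher at 120 min in every pig, and CCL8 in 9 of 11. By limma, with p-values adjusted by Benjamini-Hochberg over all probe sets and a threshold of 0.05, 3 of 3 genes were called higher. Of all probe sets, 11.6% were called higher in this comparison, 17.4% lower and 29% in either direction.

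At baseline CCL2, the monocyte attractant, had levels of 8.46, 8.34, 7.65, 7.29 and 8.80 in control pigs 1 to 5. Among the shunt pigs the lowest baseline level of CCL2 was 7.87, the median 8.65 and the highest 11.04. Shunt pigs 4 and 2 were high, at 11.04 and 10.22, while the other 4 shunt pigs lay at 9.11 or below. At 120 min CCL2 levels were 11.87, 12.75, 10.25, 11.77 and 10.87 in the control pigs. The shunt pigs lay between 12.13 and 12.82 with a median of 12.43. In neither arm did the baseline and 120 min levels of CCL2 overlap. The shunt pigs, widely spread at baseline (SD 1.31), lay close together at 120 min (SD 0.29).

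The rise of CCL2 was 3.40 ± 0.29 on the log2 scale (SE, 11 pigs; limma adjusted p = 1.37e-08). An exact sign-flip permutation test over the 11 pigs gave p = 0.000977 (two-sided), the smallest it can give. In single pigs the change ran from 1.78 in shunt pig 4 to 4.94 in shunt pig 3. The smallest changes of the shunt arm were those of pigs 4 and 2, which had the highest baseline levels. The baseline is subtracted in the change, so a high baseline by itself makes the change smaller. The arms had almost the same mean change, 3.41 ± 0.39 in the shunt arm (limma adjusted p = 1.47e-06) and 3.39 ± 0.43 in the control arm (4.32e-05). The difference of these changes, 0.016 with a 95% confidence interval from -1.19 to 1.22 (limma adjusted p = 0.997), left room for a difference of about 1 log2 unit either way. Within each of the 3 array sets CCL2 was called higher, with mean changes of 3.22, 3.78 and 3.39.

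CXCL8, the neutrophil attractant, was at the dim end of the arrays at baseline. Its baseline levels were 3.37, 3.07, 3.11, 3.26 and 3.08 in control pigs 1 to 5. For the shunt pigs the lowest was 2.99, the median 3.45 and the highest 4.74. These baseline values lay between percentile 4.86 and percentile 28.7 of the probe sets of their own arrays, and whether they are above background was not tested, so that a fold measured from them is less sure than one of CCL2. At 120 min CXCL8 stood at 4.85, 5.62, 3.59, 4.82 and 3.14 in the control pigs. Among the shunt pigs the lowest level at 120 min was 4.99, the median 6.54 and the highest 7.16. The shunt pigs had left their baseline range without overlap, whereas control pigs 5 and 3 had moved by 0.060 and 0.48 and the control groups overlapped.

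Over all pigs CXCL8 rose by 1.94 ± 0.35 (SE, 11 pigs; limma adjusted p = 1.49e-04; exact sign-flip permutation p = 0.000977, the smallest possible). The pigs later given the shunt rose by 2.53 ± 0.47 (limma adjusted p = 3.18e-04), or 5.78-fold. Control pigs had a change of 1.23 ± 0.52, above 0 in 5 of 5 pigs but not past the threshold (limma adjusted p = 0.169). On the arrays compared alone, the same control value passed (limma adjusted p = 0.0304), and within the control array set alone it did not (0.0650). An exact test over 5 pigs cannot go below p = 0.0625, which is the value it gave. The difference between the arms, 1.30 with an interval from -0.14 to 2.75, did not pass in limma (adjusted p = 0.763), while an exact permutation of the arm labels over the 11 changes gave p = 0.0260 for this gene alone. Both arms had received the same banding at this point. Limma called 0 of 23999 probe sets for this difference, 1655 having an unadjusted p under 0.05.

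CCL8, the relative of CCL2, had baseline levels of 6.13, 5.77, 5.95, 5.50 and 6.18 in control pigs 1 to 5 and between 5.004 and 6.57 (median 6.001) in the shunt pigs. At 120 min the control pigs had 5.98, 6.29, 6.29, 6.48 and 6.03. The shunt pigs had between 6.06 and 7.44 with a median of 6.37, the highest being pigs 6 and 5. Groups overlapped in both arms, since CCL8 moved by less than the spread of its baseline in several pigs. Control pigs 1 and 5 were the only pigs lower at 120 min than at baseline, by about 0.15 each.

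The rise of CCL8 over all pigs was 0.55 ± 0.12 (SE, 11 pigs; limma adjusted p = 0.00131; exact sign-flip permutation p = 0.00879). Shunt pigs rose by 0.75 ± 0.16 (limma adjusted p = 0.00155), with 6 of 6 higher. Control pigs changed by 0.31 ± 0.18, with 3 of 5 higher (limma adjusted p = 0.359). The difference between the arms, 0.44 with an interval from -0.062 to 0.95, did not pass (limma adjusted p = 0.770). Within the array sets the mean change was 0.61 in shunt pigs 1 to 4 (limma adjusted p = 0.0940), 1.02 in shunt pigs 5 and 6 (0.0422), and among control pigs 0.31 (0.298), so that 1 set of 3 gave a call when each was fitted by itself. In the shunt arm by itself, where limma called 9.75% of all probe sets higher, 3 of 3 genes were called. In the control arm, where it called 2.97%, CCL2 alone of the 3 was.

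**Figure D1:**
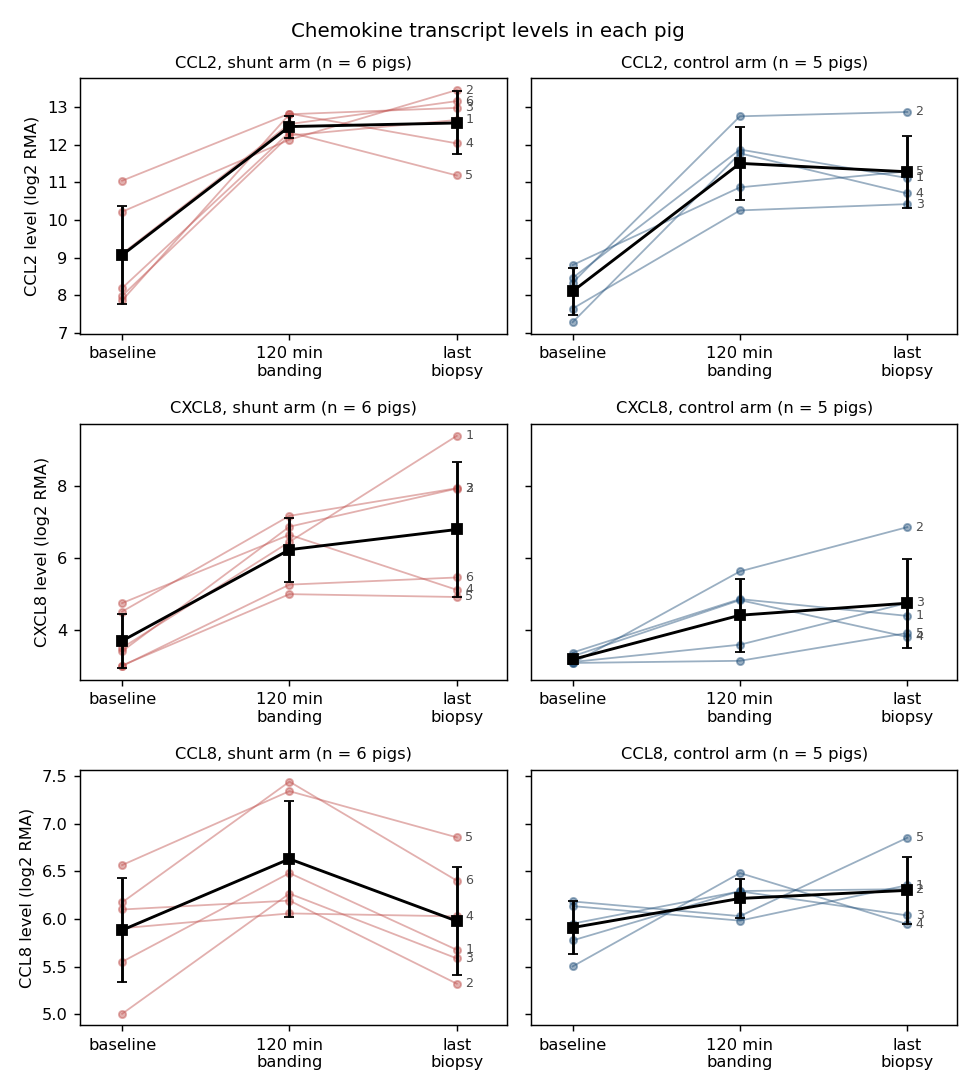
Levels of CCL2, CXCL8 and CCL8 (log2 RMA values, vertical axis) at the 3 biopsies in each of 6 shunt and 5 control pigs, with thin lines joining the biopsies of a numbered pig and black squares with bars for the group mean ± SD. Group means of CCL2 went from 9.07 (shunt) and 8.11 (control) to 12.48 and 11.50 at 120 min, CXCL8 spread out at the last biopsy (SD 1.87 in the shunt arm), and CCL8 of the shunt arm had a mean of 6.63 at 120 min and 5.98 at the last biopsy.

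The second comparison, the last biopsy against 120 min, asked what followed during 60 min with the shunt or with banding alone. No change of any of the 3 genes passed the threshold in either arm. Limma called 0 of 23999 probe sets in either arm, with 2146 (shunt) and 737 (control) at an unadjusted p under 0.05. CCL8 in the shunt arm had the smallest unadjusted p of the 6 changes, a decline in every shunt pig that was not past the adjusted threshold.

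CCL2 stood at 11.11, 12.87, 10.42, 10.70 and 11.29 at the last biopsy of control pigs 1 to 5. Across the shunt pigs the lowest was 11.18, the median 12.81 and the highest 13.45. The change from 120 min was 0.095 ± 0.39 in the shunt arm, higher in 4 of 6 pigs (limma adjusted p = 0.968). The control change was -0.22 ± 0.43, higher in 3 of 5 pigs (limma adjusted p = 1.00). In both arms the last levels overlapped those at 120 min, and the single pigs of the shunt arm ran from -1.14 to 1.32. The sign of the small shunt arm value turned without pig 2 (-0.15) or pig 6 (-0.0072).

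CXCL8 stood at 4.38, 6.85, 4.74, 3.80 and 3.91 at the last biopsy of the control pigs. In shunt pigs 1 to 6 it was 9.38, 7.93, 7.92, 5.11, 4.91 and 5.45. Pigs 1 to 3 of the shunt arm thus stood at 7.92 or more and pigs 4 to 6 at 5.45 or less, with pig 4 being of the same array set as pigs 1 to 3. The change from 120 min ran from -1.53 in pig 4 to 2.94 in pig 1. Its mean was 0.56 ± 0.47 (limma adjusted p = 0.777), and in the control arm 0.33 ± 0.52 (limma adjusted p = 1.00). The difference between the arms was 0.23 with an interval from -1.22 to 1.67, and -0.25 without shunt pig 1.

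CCL8 stood at 6.35, 6.31, 6.04, 5.94 and 6.85 at the last biopsy of the control pigs. In shunt pigs 1 to 6 it was 5.68, 5.32, 5.59, 6.03, 6.86 and 6.40. Every shunt pig was below its own 120 min level, by 0.031 in pig 4 to 1.04 in pig 6, though the groups overlapped. The mean change was -0.65 ± 0.16 (95% confidence interval -0.99 to -0.31), with an unadjusted p of 5.87e-04 in limma and an adjusted p of 0.271. The exact sign-flip permutation test over the 6 pigs gave p = 0.0312, the smallest 6 pigs allow. With array quality weights the value was -0.72 and passed (limma adjusted p = 0.0468), and over all other alternatives and every pig left out it did not. In the control arm the change was 0.085 ± 0.18, higher in 3 of 5 pigs, and -0.0995 without control pig 5.

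The randomised contrast is the difference between these later changes. For CCL8 it was -0.74 ± 0.24 (95% confidence interval -1.24 to -0.23), shunt minus control. An exact permutation of the arm labels over the 11 changes gave p = 0.0303 (two-sided, smallest possible 0.00433), while limma gave an adjusted p of 1.00 over all probe sets. For CCL2 the difference was 0.32 with an interval from -0.89 to 1.53 (exact permutation p = 0.515), and for CXCL8 the exact permutation p was 0.818. None of the 23999 probe sets was called by limma, and 737 had an unadjusted p under 0.05, so that CCL8 fails the correction although its own exact test is under 0.05. Array set moved with arm here too, and its part in the CCL8 difference was not tested. The later CCL8 changes also start from the 120 min level. Up to it, before any shunt, the CCL8 changes of the arms differed by 0.44 (95% confidence interval -0.062 to 0.95). From baseline to the last biopsy the CCL8 difference was -0.30 (exact permutation p = 0.221). The part of the earlier difference in the later one was not tested.

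**Figure D2:**
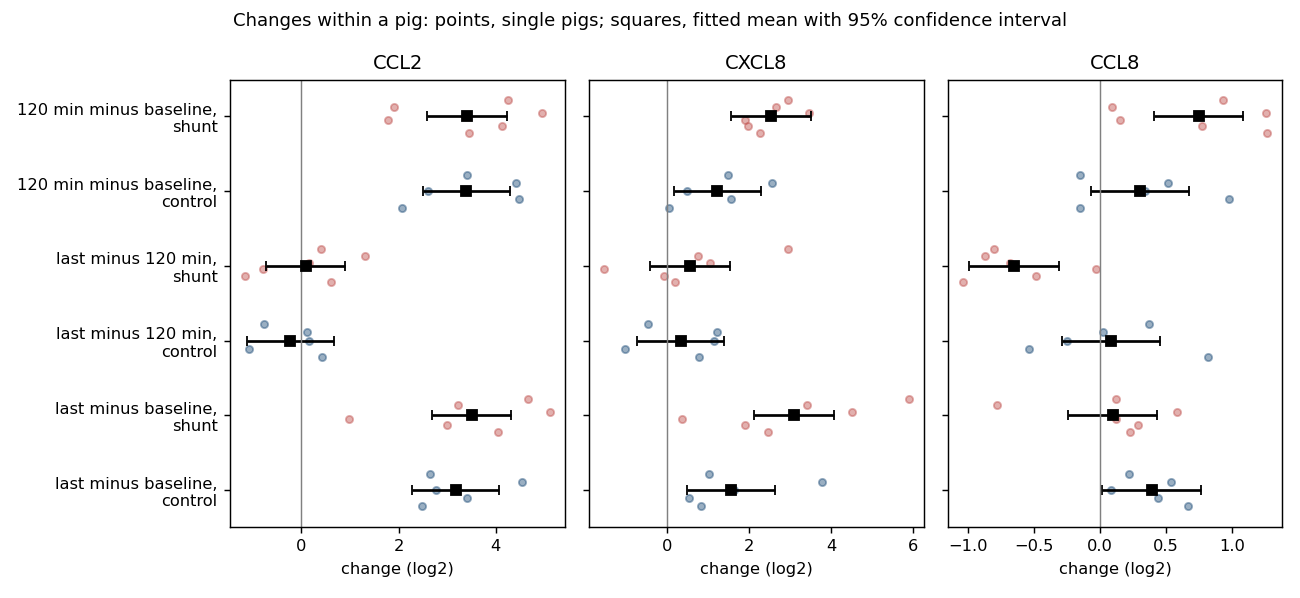
Changes of CCL2, CXCL8 and CCL8 within a pig (log2, horizontal axis) for the 3 pairs of biopsies in each arm: points are single pigs (6 shunt in red, 5 control in blue), squares the limma mean and bars its 95% confidence interval. The bar of CCL8 from 120 min to the last biopsy lies below 0 for shunt pigs (-0.99 to -0.31) and across 0 for control pigs (-0.29 to 0.46).

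From the baseline to the end of the experiment CCL2 was higher in 6 of 6 shunt and 5 of 5 control pigs. It rose by 3.50 ± 0.39 in the shunt arm (limma adjusted p = 4.65e-07), or 11.4-fold, and by 3.17 ± 0.43 in the control arm (6.31e-05), or 9.01-fold. CXCL8 rose by 3.09 ± 0.47 in the shunt arm (limma adjusted p = 1.90e-05), or 8.52-fold. In the control arm CXCL8 changed by 1.56 ± 0.52 and did not pass (limma adjusted p = 0.0610), although its last levels lay above all 5 baselines. That control value passed on the arrays compared alone (0.0253), on the control array set alone (0.0169) and with array quality weights (1.49, limma adjusted p = 0.0131). Control pig 2, at 6.85, was the highest of its arm, and without it the mean change was 1.01.

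CCL8 did not differ past the threshold between last biopsy and baseline, at 0.096 ± 0.16 in the shunt arm (limma adjusted p = 0.722) and 0.39 ± 0.18 in the control arm (0.204). It was higher in 5 of 6 shunt pigs and in 5 of 5 control pigs, and the control value passed on the arrays compared alone (limma adjusted p = 0.0251). Thus in the shunt arm 2 of 3 genes were called higher over the whole course, beside 13.3% of all probe sets. In the control arm 1 of 3 was, beside 3.5%. The first 120 min of this course came before the shunt, and CXCL8 was already called in the shunt arm by then. The whole-course difference between the arms did not pass for any of the 3. For CXCL8 it was 1.53 with an interval from 0.088 to 2.97 (limma adjusted p = 0.380; exact permutation p = 0.169). Of all probe sets, 0.00417% were called there. The 3 changes in an arm share their biopsies, and the whole course is the sum of the earlier steps.

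Before banding the arms did not differ past the threshold in any of the 3 genes, with 0.0208% of all probe sets called. CCL2 was 0.96 ± 0.53 higher in the shunt arm (limma adjusted p = 0.511; exact permutation p = 0.182), pigs 4 and 2 being the highest. CXCL8 was 0.52 ± 0.29 higher there (limma adjusted p = 0.517; exact permutation p = 0.199), the same pigs again being the highest. CCL8 differed by -0.027 ± 0.23. The wide intervals, -0.19 to 2.11 for CCL2, leave room for sizeable differences at the start.

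Whether pigs with a large rise of 1 chemokine also had a large rise of another was asked over the 11 changes from baseline to 120 min. The largest correlation was that of CCL2 with CCL8, with Pearson's r of 0.738 (permutation p = 0.0139, 0.125 after Benjamini-Hochberg over 9 relations) and Spearman's rho of 0.727 (permutation p = 0.0146, adjusted 0.104). Without the 2 pigs farthest from the median CCL2 change, shunt pigs 4 and 2, it was 0.697, and centred within array sets 0.814. CCL2 with CXCL8 gave r = 0.527 (permutation p = 0.0969, adjusted 0.174) and rho = 0.455 (permutation p = 0.161, adjusted 0.290). Here r was 0.880 without the 2 farthest pigs and 0.807 centred within array sets, both past the threshold after adjustment (permutation, adjusted p = 0.0168 and 0.0391). CXCL8 with CCL8 gave r = 0.588 (permutation p = 0.0596, adjusted 0.165) and rho = 0.555 (permutation p = 0.0831, adjusted 0.187). None of the 3 passed over all 11 pigs, and the changes of a pig come from the same arrays.

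**Figure D3:**
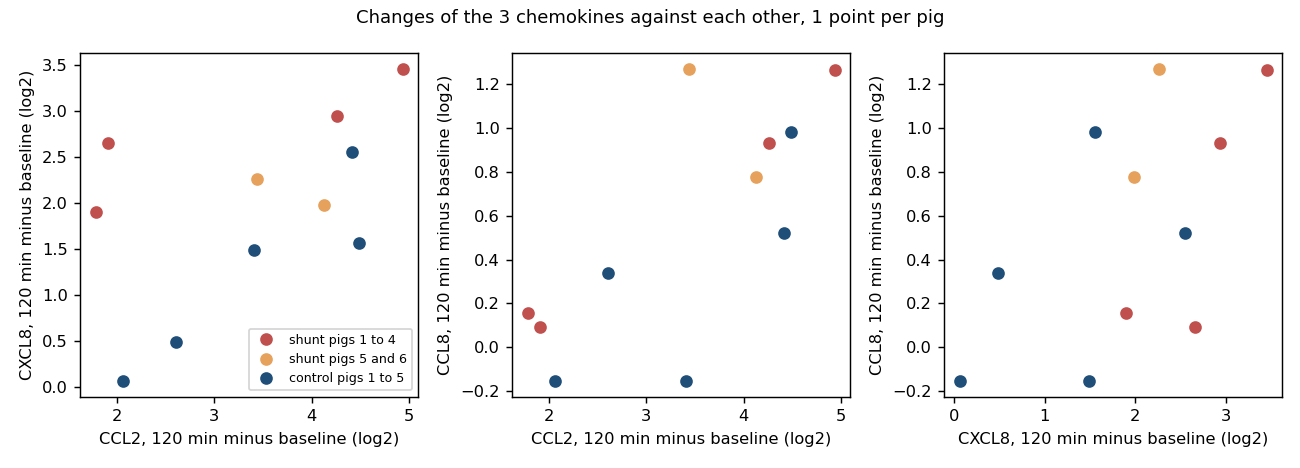
Change from baseline to 120 min (log2) of each pair of the 3 chemokines, 1 point per pig, coloured by array set. Shunt pigs 2 and 4, with the smallest rises of CCL2 in their arm (1.91 and 1.78), stand apart from the others in the panel of CCL2 against CXCL8.

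In the heart biopsies leukocyte markers were measured beside the chemokines. In bulk tissue a change in cell number and a change in RNA per cell cannot be told apart, for markers and chemokines alike. Over all 6765 genes 13.1% were called higher and 20.8% lower at 120 min, which is the background to the counts that follow. Of 13 neutrophil markers 6 were measured, and 2 were called higher at 120 min over all pigs, S100A9, a calcium-binding protein abundant in neutrophils (1.38 ± 0.29, limma adjusted p = 8.08e-04), and LTF, which encodes lactoferrin of their granules (0.49 ± 0.13, 0.00652). The mean of the 6 changed in shunt pigs by 0.74 ± 0.45, between 0.17 and 1.32 in single pigs (SD, n = 6), and in control pigs by -0.0038 ± 0.13, between -0.20 and 0.14 (SD, n = 5). Its level lay between 5.05 and 5.48 in the shunt arm at baseline and between 5.45 and 6.62 at 120 min. Control pigs lay between 5.09 and 5.39 at baseline and between 5.09 and 5.45 at 120 min. The ranges before and at 120 min overlapped narrowly for shunt pigs and almost wholly for control pigs. Limma called 0 of the 6 markers for the difference between the arms at 120 min. Both arms had had the same banding by then, and array set and arm cannot be told apart.

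Across the 11 pigs the change of the neutrophil list and that of CXCL8 had r = 0.632 (permutation p = 0.0383, 0.165 adjusted over the 9 relations) and rho = 0.691 (permutation p = 0.0231, adjusted 0.104). Without the 2 pigs farthest from the median change of the list r was 0.612, but centred within array sets it was 0.135 (permutation, adjusted p = 0.998). Centring also takes away the difference between the arms. The sets hold 4, 2 and 5 pigs, too few to tell whether a relation holds within them. The part of neutrophils in the rise of CXCL8 was not tested. With CCL2 the neutrophil list gave r = -0.0784 and with CCL8 0.253, neither passing (permutation, adjusted p = 0.816 and 0.656). CXCR1 and CXCR2, the receptors through which neutrophils sense CXCL8, were not analysed here.

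Of 12 monocyte markers 10 were measured, and 3 were called higher over all pigs: FCN1, picked out after its values were seen, the signalling adaptor TYROBP (0.42 ± 0.13, limma adjusted p = 0.0137) and the lipopolysaccharide co-receptor CD14 (0.23 ± 0.08, 0.0295). The other probe set of CD14 moved by 0.14 and was not called. The mean of the 10 changed by 0.32 ± 0.19 among shunt pigs and by 0.0012 ± 0.19 among control pigs (SD). Limma called 0 of the 10 for the difference between the arms, in which array set and arm cannot be told apart. The list's level lay between 6.40 and 6.58 in the shunt arm at baseline and between 6.40 and 6.97 at 120 min, and in the control arm between 6.33 and 6.58 and then between 6.26 and 6.58. Over pigs its change had r = -0.216 with CCL2 (permutation, adjusted p = 0.656), 0.562 with CXCL8 (0.165) and 0.151 with CCL8 (0.730). Of 6 measured macrophage markers 2 were called higher, the scavenger receptor CD163 (0.74 ± 0.10, limma adjusted p = 5.63e-06) and the mannose receptor MRC1 (0.27 ± 0.08, 0.0130). Of 10 measured lymphocyte markers 2 were called lower, the T cell surface genes CD8A (-0.50 ± 0.11, limma adjusted p = 9.67e-04) and CD3G (-0.21 ± 0.07, 0.0217), a share near the 20.8% of all genes called lower.

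Among the other chemokine genes the changes from baseline to 120 min were uneven. Of 44 chemokine ligands listed 21 were measured, CCL2, CXCL8 and CCL8 among them. Of these 21, 7 were called higher and 1 lower at 120 min over all pigs. Of the 18 ligands other than the 3, 4 were called higher and 1 lower. Across all 6765 genes 13.1% were called higher and 20.8% lower. The median change of the 21, the 3 included, was 0.10, beside -0.023 over all genes. CCL2 and CXCL8 had the highest values of the 21, each gene being represented by its brightest probe set. The 4 others called higher were CXCL2, another neutrophil attractant (0.98 ± 0.32, limma adjusted p = 0.0233), CCL4 (0.63 ± 0.19, 0.0129) and CCL3L1 (0.25 ± 0.08, 0.0309), which draw monocytes and lymphocytes, and CXCL16, the membrane-bound ligand of CXCR6 (0.32 ± 0.10, 0.0207). Within the shunt arm CCL2, CXCL8, CCL8, CCL3L1 and CCL4 were called higher and CCL14 and AMCF-II lower, beside 11.7% and 16.5% of all genes. By the brightest sets CCL2 alone was called within the control arm, where 3.44% of all genes were called higher and 3.58% lower. The difference between the arms was called for none of the 21.

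AMCF-II, a porcine neutrophil attractant related to CXCL8, was the ligand called lower, by its brightest probe set (-0.26 ± 0.07, limma adjusted p = 0.00739). Its 2 other probe sets went the other way: the middle set (mean level 5.91) rose by 3.15 ± 0.47, or 8.85-fold (limma adjusted p = 1.63e-05), and the dimmest set (mean level 4.43) by 1.68 ± 0.41 (0.00285). The middle set was also called higher within the control arm, at 120 min (2.67 ± 0.69, limma adjusted p = 0.0201) and over the whole course (2.75 ± 0.69, 0.0132). The brightest set had group means between 9.45 and 9.97, whereas the middle set went from 4.14 ± 1.61 to 7.68 ± 0.73 in shunt pigs and from 3.30 ± 0.41 to 5.98 ± 1.47 in control pigs (SD). The probe sets of AMCF-II therefore disagree in direction, and which of them reads the transcript was not tested. Over the whole course in the shunt arm CCL19, a guide of lymphocytes and dendritic cells, rose by 0.86 ± 0.25 (limma adjusted p = 0.00910) and CXCL13, which draws B cells, by 0.29 ± 0.10 (0.0365), neither being called at 120 min. CCL14, a ligand of CCR1, fell there by 0.41 ± 0.10 (limma adjusted p = 0.00296) and was already called lower at 120 min in that arm (-0.30 ± 0.10, 0.0308).

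Of 23 chemokine receptors listed 9 were measured, and 2 were called higher and 1 lower at 120 min over all pigs, beside 13.1% and 20.8% of all genes. With so few measured, these counts set the receptors apart in neither direction. CCR1, a receptor of several CC chemokines that CCL8 can also engage, rose by 1.42 ± 0.26, or 2.67-fold (limma adjusted p = 1.63e-04), in 10 of 11 pigs. CXCR6, found on T cells, rose by 0.24 ± 0.06 (0.00279), and CXCR4, the receptor of CXCL12, fell by 0.45 ± 0.12 (0.00637). CCR2, the main receptor of CCL2, changed by 0.11, which did not pass. The atypical receptor CCRL2 was called only over the whole course in the shunt arm (0.53 ± 0.15, limma adjusted p = 0.00958).

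**Figure D4:**
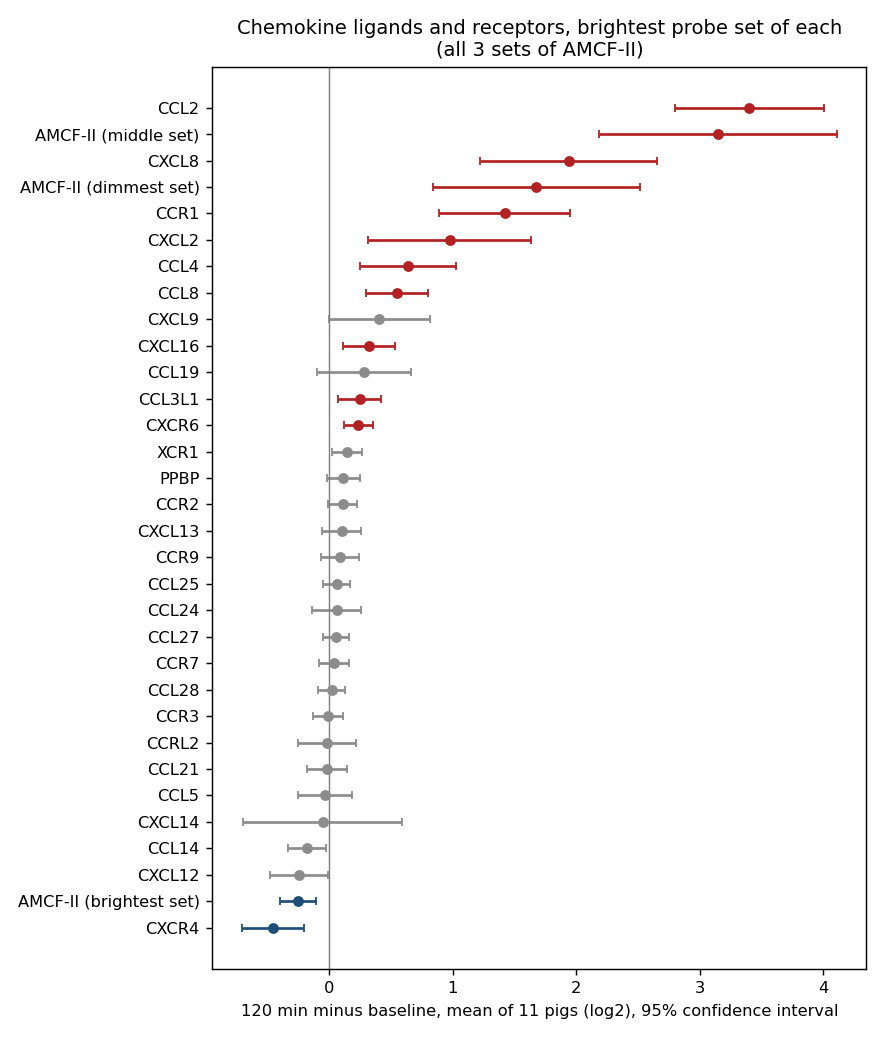
Change from baseline to 120 min (log2, mean of 11 pigs, horizontal axis) of every measured chemokine ligand and receptor, with 95% confidence intervals from limma, in red where called higher, blue where called lower and grey where not called. Each gene is shown by its brightest probe set and AMCF-II by all 3 of its sets, which lie at -0.26, 1.68 and 3.15.

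The signals known to act upstream of these genes were looked at over the same 120 min. Of all 6765 genes 13.1% were called higher and 20.8% lower in this comparison. Of 16 measured cytokines and receptors 9 were called higher and 0 lower, with a median of 0.38 beside -0.023 over all genes. The receptors with the smallest p were TNFRSF1A, a receptor of tumour necrosis factor (0.74 ± 0.07, limma adjusted p = 4.56e-08), IL1R1, the signalling receptor of interleukin-1 (1.46 ± 0.19, 2.40e-06), and the toll-like receptors TLR4 (0.73 ± 0.09, 2.76e-06) and TLR2 (0.89 ± 0.13, 1.28e-05). The other probe set of IL1R1 moved by 0.11 and was not called. Other probe sets of TLR4 moved by 0.57, 0.32, 0.19 and 0.075, the last not called. Of 13 measured factors and feedback genes of the NF-kB and AP-1 pathways, which act on the promoters of CCL2 and CXCL8 or restrain that signal, 10 were called higher and 0 lower, with a median of 0.65. Among them ATF3, a stress-induced repressor and activator, rose by 3.45 ± 0.41 (limma adjusted p = 9.12e-07), FOSL2 of the AP-1 family by 1.49 ± 0.16 (3.56e-07), CEBPD by 1.09 ± 0.11 (9.44e-08) and the inhibitor gene NFKBIB by 0.65 ± 0.10 (1.63e-05). The other probe set of NFKBIB moved by 0.22 and was not called (limma adjusted p = 0.0513).

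Chemokine messengers are short-lived, and proteins that bind their 3' ends set how fast they decay. Of 5 measured regulators of this decay 2 were called higher, ZFP36, which hastens the decay of such messengers (1.31 ± 0.24, limma adjusted p = 2.33e-04), and DUSP1, a phosphatase that turns off p38 signalling (0.90 ± 0.17, 1.94e-04). CNOT1, the scaffold of the deadenylase complex, was called lower (-0.22 ± 0.04, limma adjusted p = 4.29e-04), but its other probe set was called higher (0.17 ± 0.05, 0.0188). Over all genes 13.1% were called higher and 20.8% lower, so that 1 of 5 called lower is near the share of all genes.

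Likeness to the 3 genes was described by Pearson's r over the 33 arrays after the mean of each pig was taken away, so that it follows the course over the biopsies and shares arrays among all genes. CCL2 was most like THBS1, a matricellular protein gene (r = 0.981), MYC (0.974), IER3 (0.974), PTX3, the long pentraxin (0.971), and IFRD1 (0.967). These 5 rose at 120 min by between 2.02 and 4.30, in all 11 pigs. CXCL8 was most like IL6, the acute-phase cytokine gene (r = 0.949), the protease inhibitor gene TIMP1 (0.946), PLEK, a gene of platelets and leukocytes (0.945), the endothelial adhesion molecule gene SELE (0.935) and ATP1B3 (0.931). The genes most like CCL8 reached lower values, MYLIP (0.710), EGFL6 (0.697), CCL4 (0.682), MYOZ1 (0.646) and GABARAPL1 (0.645). Among the 3 themselves r was 0.880 for CCL2 and CXCL8, 0.557 for CCL2 and CCL8 and 0.368 for CXCL8 and CCL8. IL6 rose by 2.96 ± 0.43 at 120 min (limma adjusted p = 1.29e-05), in 11 of 11 pigs, and CCL4 in 9 of 11.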

How the data were processed

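RNA of 33 biopsies was measured on 1 Affymetrix Porcine array each. The values are the log2 probe set summaries deposited by the authors, made with RMA per the submitters' processing notes. Which RMA software was run, and on which arrays jointly, is not given in the sources used here. Deposited log2 values were neither rescaled nor filtered. Of the 24123 probe sets on file 23999 were tested, without 124 for controls. The annotation gave 1 symbol to 10069 of these, several to 198 and none to 13732, and among a gene's single-symbol probe sets the brightest stood for it.

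All arrays were fitted at once in R 4.3.3 with limma 3.58.1 (lmFit, eBayes), with pig as a fixed block and the biopsies as terms within each arm, which left 18 residual degrees of freedom. Differences between arms were interactions, and the arms were compared at baseline on the 11 baseline arrays. Tests were two-sided, Benjamini-Hochberg ran over 23999 probe sets at 0.05, and errors of fitted changes are SE. The limma procedure was tested on simulated data. The labels name the same pig at each biopsy. Residuals correlated with a median r of 0.395 within a pig and -0.0524 between pigs, and 28 of 33 arrays were nearest to one of their own pig. Exact permutation tests over pigs were run for single genes, and correlations used 100000 resamples.

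Named genes were the 3 chemokines, any chemokine ligand or receptor called in a comparison, the called ones among up to 4 genes per pathway list and 2 per marker list with the smallest p at 120 min, and the 5 genes most like each chemokine. CCR2, CXCR1 and CXCR2 were named as receptors of the 3. The members, lists and tests were chosen with earlier results of these data known. Alternatives were median centring, quantile normalisation, pig as a random block (statmod 1.5.0) or left out, fits to the compared arrays only, robust eBayes with an intensity trend, leaving out the 30% dimmest probe sets, array quality weights, the mean of a gene's probe sets, each array set alone and each pig left out.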

Additional observations from a re-analysis of the deposited data

Results flagged for a closer look

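In 36 groups of pigs, 1 for each of the 3 chemokines, each arm and each biopsy or change, a single pig lying far from the rest of its group was looked for with Dixon's criterion at 95%, by which chance picks out about 1 group in 20. It picked out 1 group, the change of CCL8 from baseline to the last biopsy in the shunt arm. Shunt pig 2 changed by -0.78, while the nearest of the other 5 shunt pigs was at 0.13, a gap of 0.664 of the whole range of the group. In that pig CCL8 went from 6.10 at baseline to 6.19 at 120 min and 5.32 at the last biopsy, the lowest last level of the 11 pigs. Without shunt pig 2 the mean change of the arm was 0.27 in place of 0.096, and neither passed in limma.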

How the results depend on the processing

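The rise of CCL2 at 120 min and over the whole course kept its call under every alternative run, in each arm and without any 1 pig (3.25 to 3.56 at 120 min over all pigs). Across the settings other than single pigs left out, the calls of the 3 chemokines that changed were these. Each array set fitted alone lost CCL8 at 120 min in the first set (0.61) and, of the all-pig change, CCL8 (0.31) and CXCL8 (1.23) in the control set. With only the arrays compared, the control arm gained CXCL8 at 120 min (1.23) and over the whole course (1.56) and CCL8 over the whole course (0.39). The whole-course CXCL8 of the control arm was also gained with array quality weights (1.49) and in its array set alone (1.56), and the later CCL8 change of the shunt arm with quality weights (-0.72). Values near 0 that turned their sign without passing were the arm difference of CCL2 at 120 min with quality weights (-0.015) and the later CCL2 change in shunt pigs 5 and 6 alone (-0.27). AMCF-II turned to a rise with the mean of its probe sets, at 120 min over all pigs (1.52) and in the shunt arm (1.73) and over the whole course there (1.96), as its sets disagree. The correlation of CCL2 with CXCL8 passed without shunt pigs 4 and 2, the farthest from the median CCL2 change (0.880), and centred in array sets (0.807). Centring turned the correlation of the monocyte list with CXCL8 to -0.00644 and with CCL8 to -0.00922.

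Leaving out 1 pig at a time gave, for values that turned sign, -0.32 to 0.34 for the arm difference of CCL2 at 120 min, -0.15 to 0.34 for the later CCL2 change of the shunt arm, -0.16 to 0.15 for CCL8 between the arms at baseline, -0.0995 to 0.24 for the later CCL8 change of the control arm, -0.0017 to 0.27 for CCL8 over the whole course in the shunt arm and -0.25 to 0.64 for the later arm difference of CXCL8. None of these passed in limma.

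The numbers of probe sets called, which are the background to the 3 genes, moved more. Without the pig block (no replicate block), which ignores the pairing of biopsies, they were 507 in place of 1616 at 120 min in the control arm, 3771 in place of 5773 in the shunt arm, 826 in place of 2110 over the whole course in the control arm and 0 in place of 1 for its arm difference, and no call of the 3 genes changed. With each gene as the mean of its probe sets, fewer features were tested, and 2285 were called at 120 min over all pigs, 1910 for shunt and 433 for control pigs, 2779 and 621 over the whole course in these arms, 3 for its difference and 3 at baseline. Array sets alone, with fewer arrays, gave 2369, 454 and 1790 at 120 min and 4804 and 1172 over the whole course in the 2 shunt sets. Quality weights gave 3440 over the whole course in the control arm, 189 for its arm difference and 46 for the later change of the shunt arm, where pig as a random block gave 1, and the causes were not tested. With only the arrays compared 0 were called for the whole-course difference, and centring or the intensity trend left 1 at baseline in place of 5.

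Leaving out 1 pig gave 662 to 1779 at 120 min in the control arm (662, 719 and 924 without control pigs 1, 2 and 3), 849 to 1635 over the whole course there (849 and 1314 without control pigs 2 and 1), 0 to 274 for its arm difference (274 and 118 without shunt pigs 4 and 5), 0 to 11 for the later change of the shunt arm (11 and 3 without shunt pigs 5 and 4) and 0 to 2 at baseline. Of the other named genes' values, 1303 kept direction and call, 181 lost the call and 3 reversed. Comparing other probe sets of the 3 chemokines was not possible, since each has 1, and single array sets allow no comparison of arms. Signal near the dim end of the arrays limits the baseline values of CXCL8.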

Other observations

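Markers of the tissue's other cells were measured over the same 120 min, in which 13.1% of all 6765 genes were called higher and 20.8% lower, so that counts of 1 or 2 among so few markers say nothing of a cell type. Of 9 endothelial markers 1 was called higher, CLDN5 of the tight junctions (0.89 ± 0.17, limma adjusted p = 2.32e-04). The 2 called lower were the angiopoietin receptor gene TEK (-0.41 ± 0.08, 2.53e-04) and CDH5 (-0.18 ± 0.06, 0.0373). CDH5 is a list member picked out for naming after its values were seen. The 2 dimmer probe sets of TEK changed by 0.072 and 0.074 and were not called. Of 6 fibroblast markers the collagen gene COL3A1 was called higher (0.44 ± 0.11, limma adjusted p = 0.00265) and the proteoglycan gene LUM lower (-0.31 ± 0.10, 0.0161). Of 6 markers of smooth muscle and pericytes 2 were called higher, the actin-binding genes CNN1 (1.14 ± 0.12, limma adjusted p = 2.73e-07) and TAGLN (0.61 ± 0.16, 0.00484). Of 11 cardiomyocyte markers 1 was called lower, PLN, which encodes phospholamban (-0.44 ± 0.09, limma adjusted p = 9.51e-04). The other probe set of PLN changed by -0.28 and was not called. No marker of mast cells and eosinophils (3 measured), erythrocytes (3) or mesothelium (2) was called.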
